A study of Moxostoma hubbsi with 18 samples.

Results

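The cytosolic small ribosomal subunit proteins were examined in whole larvae of an endangered sucker, the copper redhorse (Moxostoma hubbsi). They were taken as the features of the count table whose KEGG ortholog identifier (K and 5 digits) was on a list of 32 identifiers for eukaryotic small subunit ribosomal proteins. All 32 were present among the 9025 features of the sample files. One group of larvae was raised in river water, called contaminated in the title of the series, and the control group in laboratory water. Larvae of both groups were 14 days old counted from fertilization. For every library 5 whole larvae were pooled, and there were 9 pools per water. The design asks how the water affected gene expression. The labels give no strain, family or tank. The p-values below therefore set the difference between the waters against the spread between these pools, part of which may be technical. If pools shared a tank or family, the standard errors and intervals below may be too narrow.

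The small subunit of the cytosolic ribosome binds the messenger RNA and holds the site where its codons are read by transfer RNAs. It is built in the nucleolus from one ribosomal RNA and a fixed set of proteins, each normally present once per subunit. In vertebrates the messenger RNAs of these proteins share a pyrimidine-rich start that lets growth signals change their translation together. Suckers descend from a fish whose genome was duplicated, so a feature that stands for a group of orthologous genes may add up the counts of duplicated copies. The deposited files give no name, length or sequence for the individual identifiers. The 32 members are therefore given by identifier, without individual roles, and their levels are compared between pools and waters but not with each other. For the same reason the label of the set could not be checked against gene names, and the large subunit, mitochondrial ribosome and translation factor lists were not analysed here.

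Total counts were 14868181 to 20095604 per library in river water and 15893484 to 20584727 in laboratory water. Every member was counted deeply in every pool, with 5747 counts at the least and 65083 at the most. Counting error on the log2 scale was correspondingly small, with a median SD of 0.0109 over the members. River water replicate 1 stood apart from the other libraries. Its median Spearman correlation with them over all tested features was 0.953, against 0.988 to 0.995 for the other 17. It had the lowest total count and a scaling factor (trimmed mean of M values, TMM) of 0.872, where the other 17 libraries had 0.955 to 1.09. The main results are given with and without this library.

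As a set, the small subunit proteins took up about the same part of the RNA counts in both waters. Their summed counts made up 3.73% ± 0.111 of all counts in river water and 3.68% ± 0.126 in laboratory water (SD, n = 9 each). In river water the lowest, median and highest shares were 3.55%, 3.72% and 3.94%, against 3.57%, 3.63% and 3.97% in laboratory water. The groups overlapped over almost their whole range, and the difference of 0.0463 percentage points was smaller than the SD within either water. When river water replicate 1 was left out, the river share was 3.70% ± 0.0831 (SD, n = 8) and the difference was 0.0200 points. Without laboratory water replicate 6 the laboratory share was 3.65% ± 0.0653 (SD, n = 8), and the difference of 0.0829 points was then above the laboratory SD but below the river SD of 0.111. No test was applied to the sum, because the members were chosen with earlier results of these data known. Counting error was far below the spread between pools: the share in river water replicate 1 had an exact 95% binomial interval of 3.928% to 3.948%. In bulk libraries such as these, fewer cells of a kind and less RNA per cell cannot be told apart.

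Levels below are in CPM, which sets the count of a feature against the TMM-scaled total of its library. The summed level was 37170 ± 3464 CPM in river water and 37077 ± 2084 CPM in laboratory water (SD, n = 9 each). The lowest, median and highest pools had 34275, 35917 and 45165 CPM in river water and 35248, 36076 and 41312 CPM in laboratory water. The highest values belonged to river water replicate 1 and laboratory water replicate 6. Without river water replicate 1 the river mean was 36171 ± 1855 CPM (SD, n = 8) and its highest pool was at 39529 CPM, below laboratory water replicate 6. The order of the top pools depended on the scaling, since laboratory water replicate 6 had the largest unscaled share of all 18 and river water replicate 1 the largest scaled level.

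**Figure D1:**
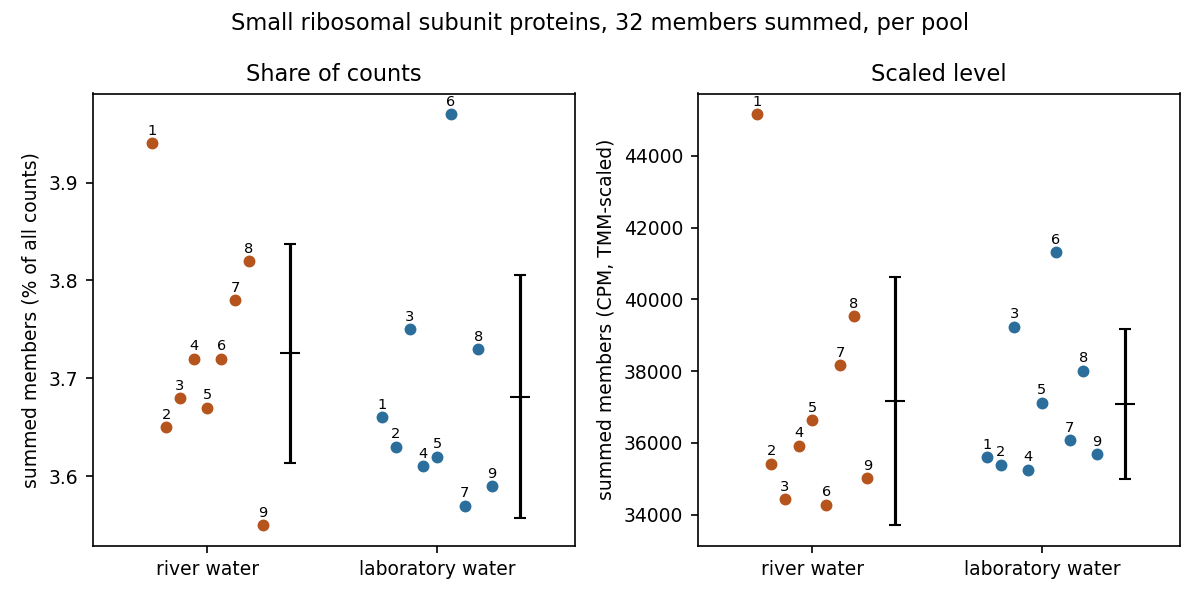
Summed small subunit ribosomal proteins in each pool of river water and laboratory water, as percent of all counts (left) and as TMM-scaled CPM (right), with replicate numbers above the points and the mean with SD at the side (n = 9). The waters overlap on both scales, and river water replicate 1 (45165 CPM) and laboratory water replicate 6 (41312 CPM) are the highest pools on the scaled level.

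None of the 32 members passed the test between the waters. With edgeR's quasi-likelihood test and Benjamini-Hochberg adjustment over all features, 0 of the 32 had an adjusted p under 0.05, whereas 565 of the 9008 tested features did (6.27%). All 32 members passed the filter on low counts. The smallest adjusted p among them was 0.636 and 0 had an unadjusted p under 0.05, as 23.7% of all tested features had. DESeq2 also called 0 members, with 9.98% of all features called, and limma-voom called 0, with 6.42% called. In no member were the 9 pools of river water separated from the 9 pools of laboratory water, as they were in 0.888% of all tested features. In 29 of the 32 the river range contained the whole laboratory range, which held for 33.3% of all tested features. The upper end of the river range was river water replicate 1 in every member. The share of all tested features for which this held is not given here.

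The fitted changes were small and lay on both sides of 0. In 13 members the log2 fold change of river over laboratory water was positive and in 19 it was negative, where 53.0% of all tested features were positive. The values ran from -0.028 to 0.046, with a median of -0.0023 over the members and 0.009 over all tested features. The median size of the log2 change, whatever its sign, was 0.0114 over the members and 0.0858 over all tested features. Features with low counts carry more counting error, and these medians are not matched for depth. Standard errors of the members were 0.0401 to 0.0680, so the estimates were smaller than their errors in every member. The 95% intervals of all 32 members lay between ratios of 0.904 and 1.13 of river over laboratory water.

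**Figure D2:**
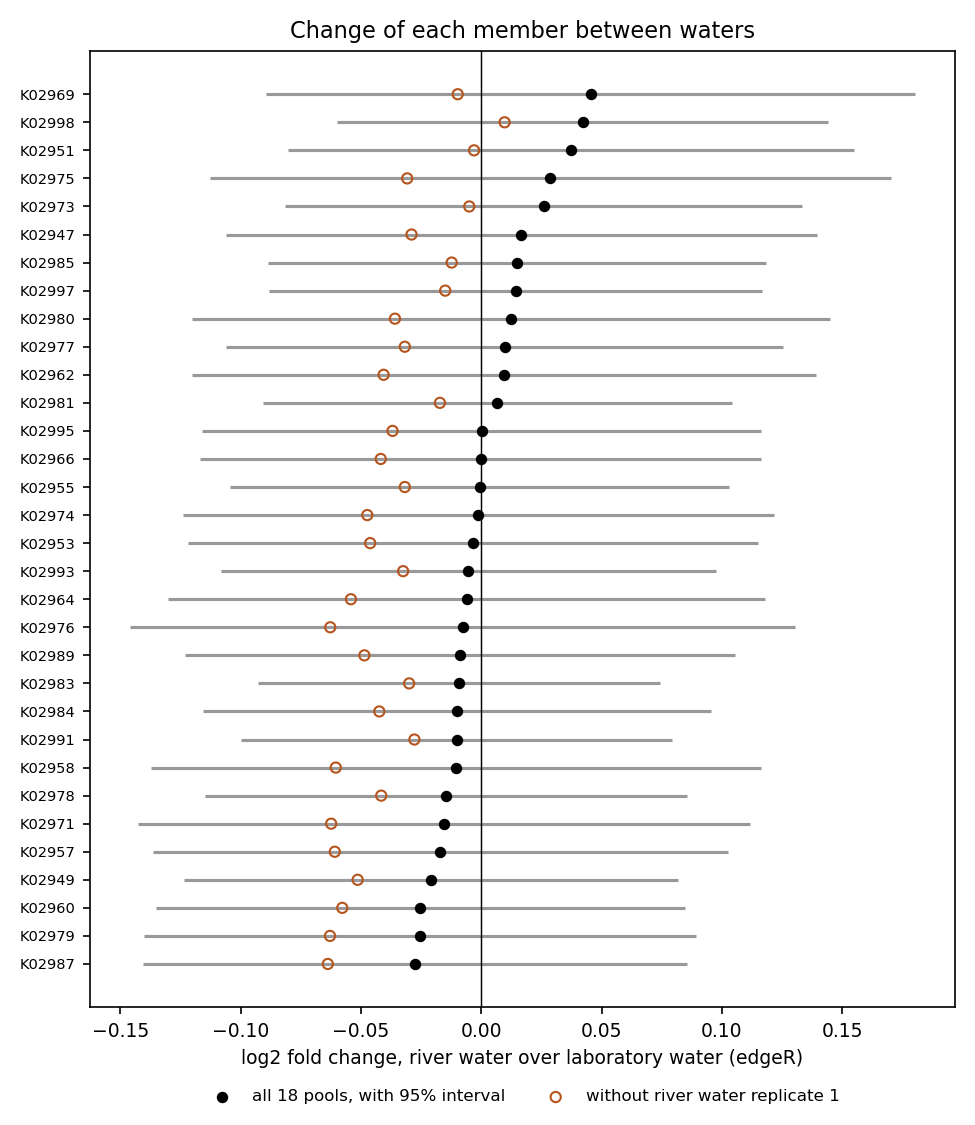
Log2 fold change of river over laboratory water for each of the 32 members, with all 18 pools (filled points, bars are 95% intervals) and without river water replicate 1 (open points). Every interval contains 0, and without that library 31 of the 32 values are below 0, the lowest at -0.064.

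The most positive estimate belonged to K02969. Its level was 1029, 1091 and 1503 CPM in the lowest, median and highest pool of river water, against 1020.4, 1072 and 1211 CPM in laboratory water. Apart from the one highest river pool, replicate 1, the waters covered nearly the same range. The change was 0.046 ± 0.065 (SE) in log2, and edgeR gave an adjusted p of 0.706. Without river water replicate 1 the estimate was -0.010.

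K02998 was the next in this direction. It had 2061, 2196 and 2689 CPM in the lowest, median and highest river pool, against 2053, 2183 and 2374 CPM in laboratory water. The low and middle pools were at matching levels and the difference lay at the top of the range. In log2 the change was 0.042 ± 0.049 (SE), and the adjusted p by edgeR was 0.636. It was also the single member whose estimate stayed positive, at 0.010, without river water replicate 1. The third, K02951, had 1235, 1309 and 1685 CPM in river water and 1243, 1295 and 1449 CPM in laboratory water. The lowest pools of the waters differed by a few CPM, and the estimate was 0.037 ± 0.056 (SE).

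The most negative estimate was that of K02987. Its lowest, median and highest pools had 1518, 1619 and 2037 CPM in river water and 1609.5, 1633 and 1944 CPM in laboratory water. River water held both the lowest and the highest pool. In log2 the change was -0.028 ± 0.054 (SE), and edgeR gave an adjusted p of 0.796. K02979 had 424, 442 and 568 CPM in river water and 438, 460 and 534 CPM in laboratory water, and K02960 had 811, 862 and 1059 CPM in river water and 836, 883 and 1039 CPM in laboratory water. For both, the median river pool was slightly below the median laboratory pool while the river range was the wider one. Their log2 fold changes were -0.026 ± 0.055 and -0.025 ± 0.053 (SE).

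**Figure D3:**
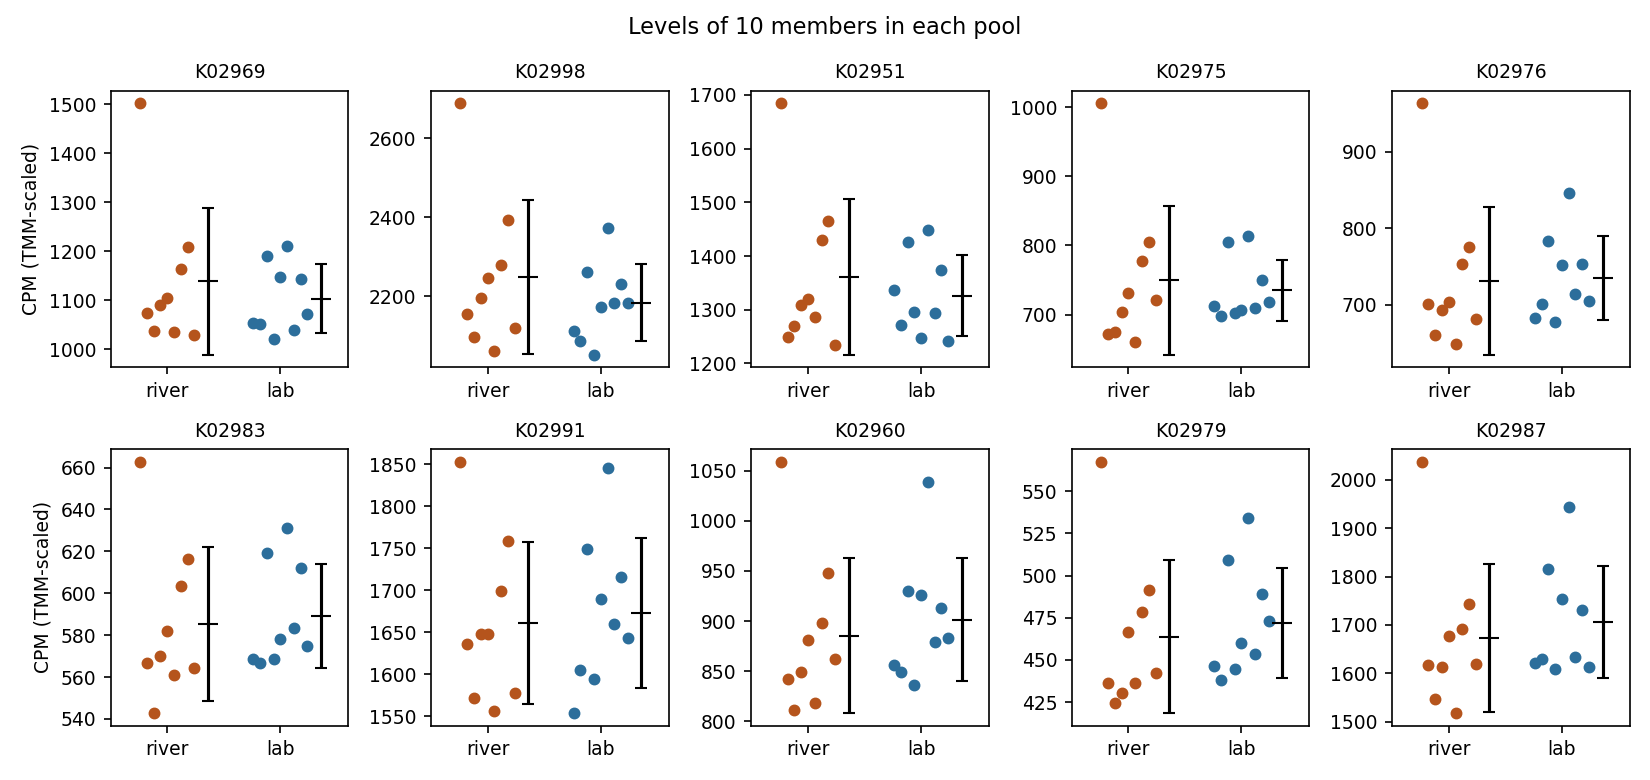
TMM-scaled level in CPM of 10 members in each pool of river water and laboratory water, ordered by log2 fold change, with mean and SD at the side (n = 9). In each panel the highest river point is replicate 1, for example 1503 CPM of K02969, and the remaining river pools overlap with the laboratory pools.

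Without river water replicate 1 the estimates moved together to the negative side. The log2 fold change was then below 0 in 31 of the 32 members, with a median of -0.039. Over all tested features the median was 0.0114 and 54% of the values were positive. Again 0 members passed (edgeR), where 979 features did (10.9%). The smallest adjusted p of a member was 0.351, and 0 members had an unadjusted p under 0.05 where 26.0% of all features had. Members that were negative with all pools stayed negative. The positive direction of the others, except K02998, thus depended on this library. Leaving out laboratory water replicate 6 in its place gave a positive estimate in all 32 members, with a median of 0.022. Over all features 53.7% were then positive, with a median of 0.011. With both libraries left out, 6 members were positive and the median was -0.021, against 51.9% positive and a median of 0.0043 over all features.

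The deposited file names carry a number from 1 to 3 whose meaning the labels do not state, and the waters were also compared within each number, 3 pools against 3. Within number 1, which holds river water replicate 1, all 32 members had a positive log2 fold change, with a median of 0.061. Without that library all 32 were negative, with a median of -0.076. Within number 2, which holds laboratory water replicate 6, all 32 were negative, with a median of -0.12. Within number 3, 31 of the 32 were positive, with a median of 0.046. In each of these fits 0 members passed (edgeR), with 0% of all features called within number 1, 1.10% there without river water replicate 1, 0.0555% within number 2 and 3.06% within number 3. The unadjusted p was under 0.05 for 0 members in each, and for 7.12%, 14.8%, 13.7% and 15.7% of all features in the same order. Over all features 48.9%, 49.6%, 51.2% and 52.0% had a positive log2 fold change, again in that order. Nearly the whole set thus shared a sign within each number, and in number 1 that sign depended on river water replicate 1. Within number 2 no fit left out laboratory water replicate 6, so its part in that sign was not tested.

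On the TMM-scaled level, the spread between pools was largely a movement of the whole set. As a percent of the mean, the SD of the summed CPM was 9.32 in river water and 5.62 in laboratory water. For the unscaled share it was smaller, 2.97 in river water and 3.41 in laboratory water. In river water replicate 1 all 32 members were at their highest level of the 9 river pools, with a median of 0.301 above the laboratory mean on the log2 scale. In laboratory water replicate 6 all 32 were at their highest of the 9 laboratory pools, with a median of 0.166 above it. River water replicate 8 and laboratory water replicates 3 and 8 also had all 32 above the laboratory mean. In contrast, river water replicates 2, 3, 6 and 9 and laboratory water replicates 2 and 4 had 0 members above it. The shares of all tested features behaving in these ways in these pools are not given here. The lowest pools on the scaled level were river water replicate 6, where 17 members had their lowest river level, and laboratory water replicate 4, where 13 had their lowest laboratory level. These pools were not the lowest by unscaled share, at 3.72% and 3.61% of all counts. By share the lowest were river water replicate 9 (3.55%) and laboratory water replicate 7 (3.57%). River water replicate 1 had the lowest total count of all pools and the highest scaled set level. Laboratory water replicate 4 had the lowest total of its group, 15893484, and the lowest scaled set level of its group. A larger TMM factor lowers the scaled level at a given share. The factor was 0.872 in river water replicate 1, the lowest of all pools, and 1.09 in river water replicate 6, the highest. In laboratory water it was 0.962 in replicate 6 and 1.02 in replicate 4, neither of them the extreme of that group. The part of depth in these levels was not tested.

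**Figure D4:**
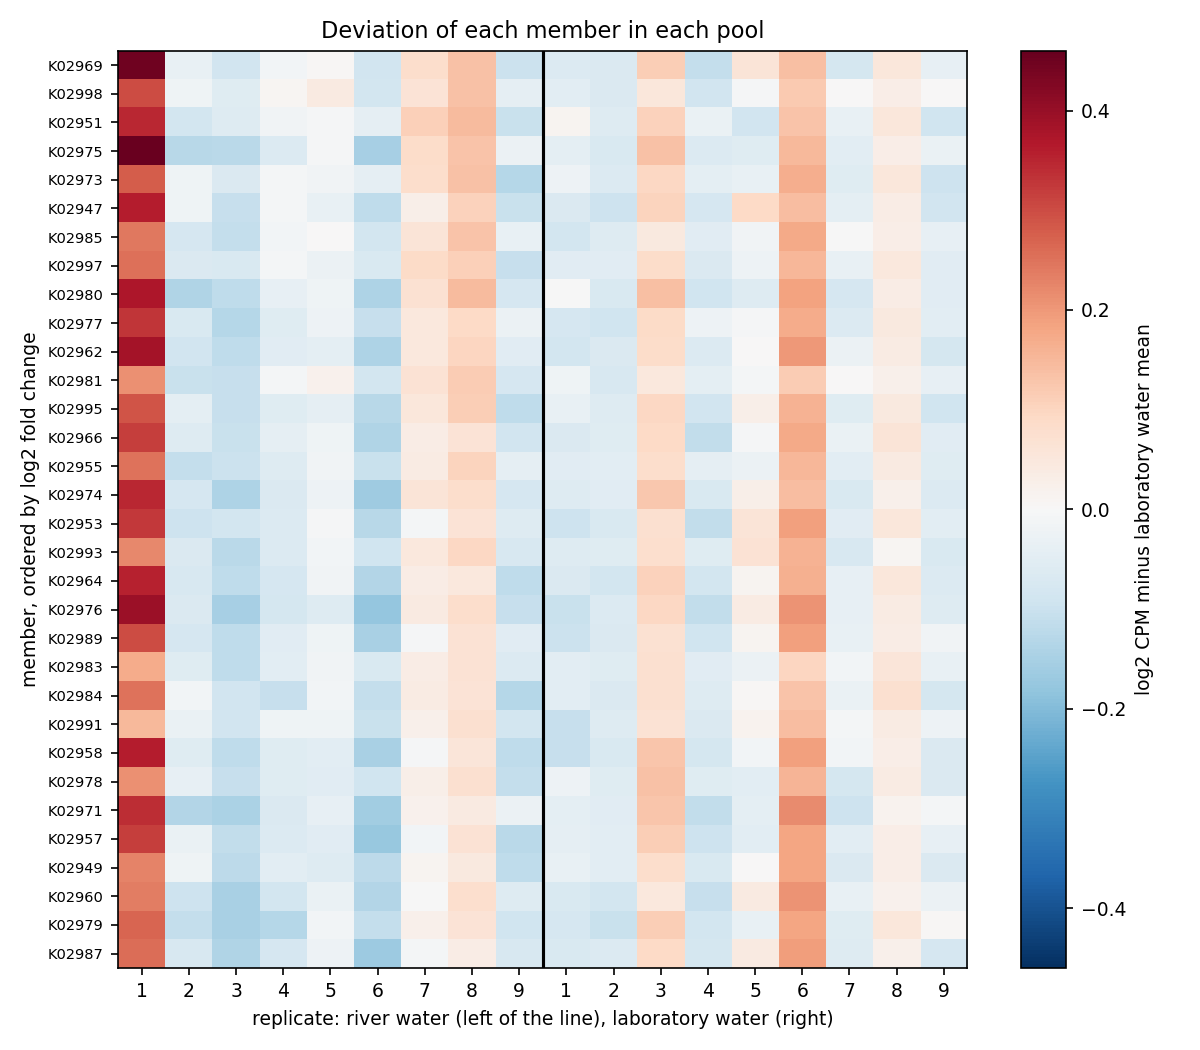
Log2 CPM of each of the 32 members (rows) in each pool (columns, river water left of the line and laboratory water right) minus the member's laboratory water mean. All 32 members are above the laboratory mean in river water replicates 1 and 8 and laboratory water replicates 3, 6 and 8, while laboratory water replicate 5 has 15 above it.

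For single members, the SD between pools of log2 CPM had a median of 0.135 in river water, with a range of 0.0823 to 0.190, and of 0.0887 in laboratory water, with a range of 0.0575 to 0.107. Over all 9008 tested features the median SD was 0.168 in river water and 0.115 in laboratory water. In river water 28 members were below the all-feature median and in laboratory water all 32 were. Features with low counts carry more counting error, and the members are among those counted deeply. Without river water replicate 1 the median SD of the members in river water was 0.0747, against 0.0887 in laboratory water. On this scale the wider spread in river water was thus not present when that pool alone was left out. Laboratory water replicate 6, the highest laboratory pool, was still included. Without river water replicate 1 and laboratory water replicate 6, the SD of the summed CPM was 5.13% of the mean in river water and 3.95% in laboratory water. With all 9 pools of each water, the unscaled share of the summed members was not more spread in river water. Its SD was 0.111 percentage points there, against 0.126 in laboratory water. This order rested on laboratory water replicate 6. Without it the laboratory SD was 0.0653 points, below the river SD with all pools and below the 0.0831 without river water replicate 1.

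K02975 and K02976 had the largest SD between pools when the variances of both waters were averaged. The first place of K02975 rested on river water replicate 1. In laboratory water K02971 had the largest SD, 0.107, followed by K02976 at 0.1045, against 0.0854 for K02975. In river water without that library K02980 and K02975 were level at 0.103, and K02976 was at 0.0883. K02975 had 659.8, 721 and 1006 CPM in the lowest, median and highest river pool, against 698, 712 and 814 CPM in laboratory water. K02976 had 648, 701 and 964 CPM in river water, against 678, 714 and 847 CPM in laboratory water. In both members the river range extended beyond the laboratory range at either end. Their log2 fold changes were 0.029 ± 0.068 and -0.0078 ± 0.066 (SE).

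K02983 and K02991 had the smallest SD by the same average. In laboratory water alone K02981 had the smallest, 0.0575, against 0.0760 for K02991. K02983 had 543, 569.8 and 663 CPM in river water, against 567, 578 and 631 CPM in laboratory water. K02991 had 1557, 1648 and 1853 CPM in river water, against 1554, 1659.6 and 1845 CPM in laboratory water, so its ranges coincided almost fully. Their log2 fold changes were -0.0093 ± 0.040 and -0.010 ± 0.043 (SE).

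The proportions within the set were steadier than its TMM-scaled level. When each member was expressed relative to the summed counts of all 32, the median SD between pools was 0.0323 in river water and 0.0273 in laboratory water on the log2 scale. The SD of the scaled level was larger by a factor of 4.16 in river water and 3.26 in laboratory water, comparing medians, and for 0 of the 32 members was the relative SD the larger one in either water. The median relative SD in river water without replicate 1 was 0.0235 and the factor 3.18. The members share the libraries and the scaling factor, and the ratio to the sum removes both. The factors above therefore hold for the scaled level only. On the unscaled share the set itself spread less, with an SD of 2.97% of the mean in river water and 3.41% in laboratory water. No factor was computed against that share. The median relative SD still exceeded the median counting SD of 0.0109.

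**Figure D5:**
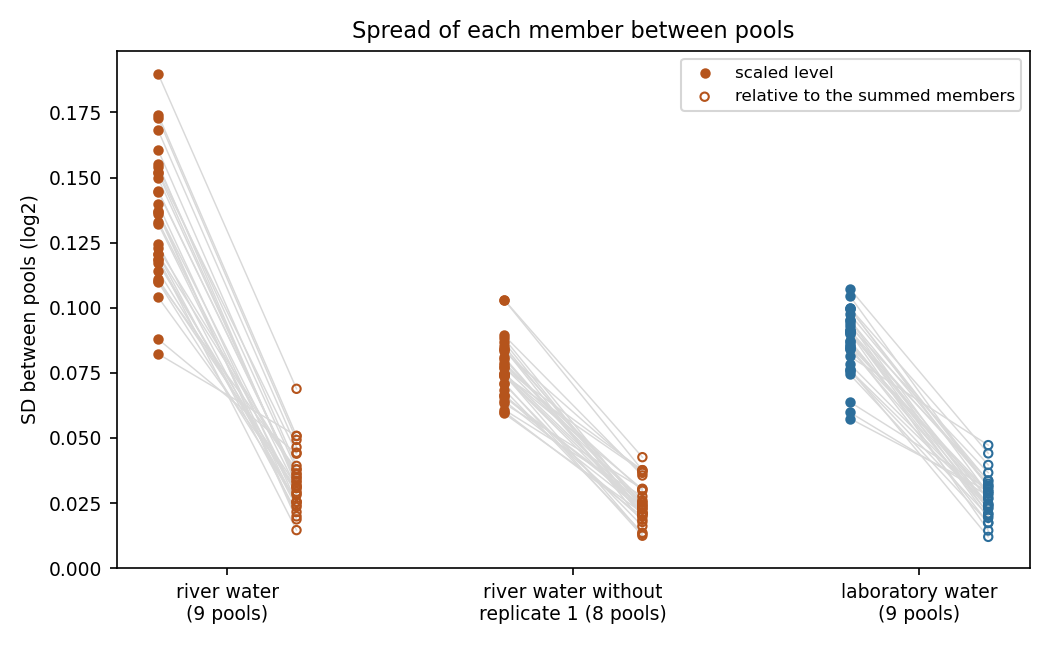
SD between pools on the log2 scale for each of the 32 members, for the TMM-scaled level (filled) and for the count relative to the summed members (open), with lines joining the values of 1 member. In river water the median is 0.135 for the level and 0.0323 for the relative value, and all members are lower on the relative scale.

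The proportions were also compared between the waters, with libraries scaled to the summed members in place of TMM. Of the 32 members 0 passed this test, where 274 of the 9008 features did (3.04%; edgeR). Among the members 0 had an unadjusted p under 0.05, where 18.2% of all features had, and the smallest adjusted p was 0.318, that of K02998. With river water replicate 1 left out, again 0 members passed, where 6.23% of all features did, and the smallest adjusted p was 0.235 (edgeR). Relative to the set, the log2 fold change was 0.038 ± 0.020 (SE) for K02998 and -0.030 ± 0.020 (SE) for K02987. Both 95% intervals contained 0. The 95% intervals of all members lay between ratios of 0.946 and 1.07, narrower than on the TMM scale.

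River water replicate 1 differed in these proportions too. The median size of the members' deviation from the mean proportion of the other river pools was 0.0620 on the log2 scale, against 0.00924 to 0.0345 for the other 17 libraries, each set against the other pools of its water. In this library K02975 made up more of the set than in the other river pools, by 0.169 on the log2 scale, and K02991 less, with a log2 deviation of -0.142. On the scaled level this library was above the laboratory mean by 0.455 for K02975 and by 0.150 for K02991, the largest and smallest such deviations among its 32 members. RNA quality and the tissue makeup of this pool were not tested.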

How the data were processed

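The authors deposited raw counts for every feature, as whole numbers without normalization. EdgeR is named without a version in the submitters' processing notes, while aligner, database and counter were not given in the sources used here. Fits took the 18 sample files (9025 features). The table of the whole series (9645 features, 0 unused columns) differed from them in 0 shared values. Libraries held 14868181 to 20584727 counts and were grouped by the water in their titles. Any pair of libraries differed by a chi-square per degree of freedom of at least 4.20, more than sampling noise.

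Fits used edgeR 4.0.16 under R 4.3.3. Its default filter (minimum count 10, minimum total 15) removed 17 features and left 9008. After TMM scaling, all 18 libraries entered 1 robust quasi-likelihood fit with water as the only term, with Benjamini-Hochberg adjustment over all tested features and a threshold of 0.05. Standard errors are log2 fold changes over the square root of F. Log2 CPM used a prior count of 2. The fit was tested on simulated data.

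The members, tests and lists were chosen with earlier results of these data known. Members named with values are any past the threshold, the 3 most positive and 3 most negative in log2 fold change, and the 2 with the largest and 2 with the smallest SD between pools. Alternatives were other scalings, filters, tools (DESeq2 1.42.0, limma 3.58.1) and feature tables, the replicate number and the file number as batch, and leaving out libraries. Scaling to the summed members, the omission of river water replicate 1 with laboratory water replicate 6, and the fit within file number 1 without river water replicate 1 were chosen after seeing the data. Intervals of shares cover counting error only.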

Additional observations from a re-analysis of the deposited data

Results flagged for a closer look

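A pool was singled out when its gap to the next pool was unusually large against the range of its group of 9. About 1 in 20 groups is singled out by chance, and the members move together, so these are not separate signals. In river water, replicate 1 was singled out for the summed members (45165 CPM) and for K02969 (1503 CPM), K02975 (1006 CPM), K02976 (964 CPM), K02979 (568 CPM) and K02987 (2037 CPM). In all, this pool was singled out in 18 of the 32 members. Only the members and their sums were examined in this way, so no share over all features stands beside these counts. River water replicate 1 stood apart over all tested features too. For the summed share (3.94% of counts) it was not singled out. In laboratory water, replicate 6 was singled out for the summed share (3.97% of counts) and for K02960 (1039 CPM), and in 2 of the 32 members in all. For the summed members on the scaled level (41312 CPM) it was not singled out.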

How the results depend on the processing

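The count of members past the threshold was 0, in either direction, under every alternative run, including each library left out, and the lowest adjusted p of the 10 named members was 0.117 (K02998, total count only, edgeR). With libraries scaled to the total count alone, 1 member had an unadjusted p under 0.05 (0.0169, edgeR), where 23.9% of all features had. The median log2 fold change over all features was then 0.0295. The difference in summed share of 0.0463 points moved by less than the SD between pools under each alternative, to between -0.0264 (within file number 2) and 0.089 (within number 3). With 1 library left out it was 0.0200 (without river water replicate 1) to 0.0829 (without laboratory water replicate 6), the last above the laboratory SD of those pools. The cause of the shifts below was not tested, beyond the libraries or samples each alternative removes.

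The signs were unstable. The number of members with a positive log2 fold change, 13 with all pools, was 26 with total counts, 5 with quality weights, 32, 0 and 31 within file numbers 1, 2 and 3, and 0 within number 1 without river water replicate 1. It was 1 when river water replicates 1 and 6 were omitted, and 6 without river water replicate 1 and laboratory water replicate 6. With 1 library left out it was 1 to 32, the lowest without river water replicate 1 and the highest without laboratory water replicate 6. Over all features the positive share was 59.7% with total counts and 51.8% with quality weights. It was 50.9% without river water replicates 1 and 6, and 50.7% to 54% with 1 library left out. The median change of the members was -0.1174 within number 2 and, with 1 library left out, -0.0388 to 0.022.

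The count over all features, 565, was 899 with DESeq2, 1225 with quality weights, 311 when summed by file number, 274 relative to the summed members, 0, 5 and 276 within numbers 1, 2 and 3 (642 at an unadjusted p under 0.05 in number 1, edgeR), 99 within number 1 without river water replicate 1, and 1041 when river water replicates 1 and 6 were omitted. With 1 library left out it was 377 to 979. Under the replicate block it was 356, and 0 members passed. Deviations of same-numbered libraries correlated at -0.433 to 0.372, above 0.1 in 4 of 9 pairs, and 2 of 18 libraries correlated best with their own number, so the number was not taken as a pairing.

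Opposite signs among the 10 named members were 46 of 420 values, none past the threshold. The 420 include the main fit's own values for these 10 members, repeated beside the share of the scaled total, which could not differ in sign. With total counts K02976 was at 0.0044 and K02983 and K02991 at 0.0071. With quality weights K02975 was at -0.0142. Within number 1, K02960 was at 0.0438, K02976 at 0.1027, K02979 at 0.0367, K02983 at 0.0162, K02987 at 0.0395 and K02991 at 0.0464. Within number 1 without river water replicate 1, K02951 was at -0.0906, K02969 at -0.0533, K02975 at -0.1301 and K02998 at -0.0139. Within number 2, K02951 was at -0.0374, K02969 at -0.0736, K02975 at -0.0951 and K02998 at -0.0306. Within number 3, K02960 was at 0.0217, K02976 at 0.0297, K02979 at 2e-04, K02983 at 0.0149, K02987 at 0.0255 and K02991 at 0.0087. Without river water replicates 1 and 6, K02951 was at -0.001, K02969 at -0.0022 and K02975 at -0.0176. Without river water replicate 1 and laboratory water replicate 6, K02975 was at -0.0155. Relative to the summed members and without river water replicate 1, K02983 was at 0.0019 and K02991 at 0.0048. With 1 library left out the ranges were -0.003 to 0.0565 for K02951, -0.0578 to 0.0049 for K02960, -0.0098 to 0.0659 for K02969, -0.0308 to 0.0508 for K02975, -0.0628 to 0.0224 for K02976, -0.0629 to 9e-04 for K02979, -0.03 to 0.0061 for K02983, -0.0638 to 4e-04 for K02987 and -0.0278 to 0.0111 for K02991.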
